A study of Mus musculus with 8 samples.

Results

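The comparison described here sets livers from mice kept in constant light against livers from mice kept in a light/dark cycle, all of them exposed to PM2.5 for 30 weeks. PM2.5 is fine particulate air pollution. RNA-seq of liver was done for 8 libraries in the series, all from C57BL/6 wild-type animals, with 4 groups of 2 that combine a light regime with an air condition. This comparison uses 4 of the 8, selected by their labels: 2 LL-PM2.5 libraries (constant light, labelled as a light/light cycle, with PM2.5) and 2 LD-PM2.5 libraries (light/dark cycle with PM2.5). The 2 LD-FA and 2 LL-FA libraries (filtered air under each light regime) entered the same statistical fit, where they add to the estimate of the spread, and serve below for the light comparison without particles. The title of the series names circadian rhythm and chromatin, and the comparison asks how livers under particle exposure differed between the light regimes. Whether the 2 replicates of a group are different animals is not stated in the labels. The p-values therefore measure only the spread between these samples, which need not be that between animals. That spread exceeded counting noise, with a chi-square per degree of freedom between replicates of 85.7 in LD-PM2.5 and 88 in LL-PM2.5. A permutation of single values over 2 against 2 libraries cannot give a two-sided p below 0.333. Neither the sex of the mice nor the hour of tissue collection is stated in the sources used here.

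The liver clock is a feedback loop in which the activators BMAL1 (gene Arntl), CLOCK and NPAS2 switch on the period and cryptochrome repressors, while REV-ERB receptors repress and ROR receptors activate Arntl. The loop also drives output factors such as DBP, and NFIL3 peaks in antiphase to it on the same DNA sites. Feeding, body temperature and glucocorticoids reach liver genes in parallel with the clock, and heat shock chaperones, which refold or hold damaged proteins, are among the transcripts that follow body temperature. Acute phase proteins are plasma proteins that hepatocytes make when IL-6 type cytokines act through STAT3 and when NF-kB is active. Constant light is known as a condition that weakens or desynchronises rhythms in rodents.

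Of 48323 gene symbols, 11316 had an estimate and at least 1 FPKM (fragments scaled for transcript length and library depth) in at least 2 of the 8 libraries, and these were tested with edgeR's quasi-likelihood test. None was called at an adjusted p below 0.05 in either direction, 0% of those tested, and the smallest adjusted p was 0.349. At an unadjusted p below 0.05, 1044 genes stood out, 9.23% of those tested, where 566 would be counted if p-values were spread evenly. Of these, 401 (3.54%) stood higher and 643 (5.68%) stood lower in LL-PM2.5. DESeq2, run as an alternative on the same fragments, called 139 genes (1.23%), 33 higher (0.292%) and 106 lower (0.937%), and limma on log2(FPKM + 1) called 1. Of the 33, Tnnt3, Myh2 and Fabp3-ps1 had DESeq2 log2 fold changes of 16.19 to 17.47 and edgeR adjusted p-values of 0.901 to 0.948. Tnnt3 is a muscle marker, and the 8 muscle markers summed to at most 1.34 FPKM in each of the 4 libraries. These 3 calls are not read as higher levels. The median log2 fold change over all tested genes was 0.01 and the central 90% lay between -0.60 and 0.50. In 3471 genes (30.7%) both libraries of one group lay beyond both of the other, 1397 higher (12.3%) and 2074 lower (18.3%). Fold changes below are LL-PM2.5 over LD-PM2.5 with their standard error from edgeR, unless filtered air is named. Those in filtered air are LL-FA over LD-FA. In the text these, and values with 1 library left out, are given without a standard error. Where 4 FPKM values are listed, the 2 LL-PM2.5 replicates come first and the 2 LD-PM2.5 replicates follow.

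Heat shock chaperones and their partners stood lower in LL-PM2.5. The list holds mostly cytosolic chaperones and co-chaperones, with the mitochondrial chaperonins Hspd1 and Hspe1 and the regulator Hsf1 among them. All 20 listed genes were tested, and all 20 had a negative fold change, with a median log2 fold change of -0.86 against 0.01 for all genes. In 18 of the 20 both LL-PM2.5 libraries lay below both LD-PM2.5 libraries, 14 had an unadjusted p below 0.05, and DESeq2 called 10 lower. Over all tested genes 18.3% were lower without overlap, 5.68% were lower at such a p and DESeq2 called 0.937% lower. The same shares apply to the STAT3, cytokine and acute phase lists below. Leaving out 1 of the 4 libraries moved the median between -0.58, reached when LL-PM2.5 replicate 1 was dropped, and -1.17, reached when LL-PM2.5 replicate 2 was dropped, and 18 to 20 members stayed negative.

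Bag3, a co-chaperone that releases substrates from HSP70, measured 17.5 and 19.8 FPKM in LL-PM2.5 and 37.7 and 52.5 in LD-PM2.5, a log2 fold change of -1.22 ± 0.21 (adjusted p = 0.366). Dnajb1, the J-domain partner that loads substrates onto HSP70, measured 11 and 12.2 FPKM against 19.9 and 26.7 (-0.98 ± 0.19). Dnaja4, a related J-domain protein, measured 1.97 and 1.26 FPKM against 3.77 and 4.96 (-1.41 ± 0.28). In all 3 genes the groups did not overlap, and the lower LD-PM2.5 library was well above the higher LL-PM2.5 library. Hspa1a and Hspa1b encode the heat-inducible HSP70, and fragments of these near-identical copies may be assigned to either. Hspa1a measured 0.204 and 0.358 FPKM against 0.808 and 1.9, a 4.62-fold lower level (-2.21 ± 0.46). Among these values only that of LD-PM2.5 replicate 2 reached the limit of 1 FPKM, and in filtered air Hspa1a stood at -3.61. Hspa1a thus entered the list counts through libraries where it was high. Hspa1b measured 2.64 and 10.4 FPKM against 23 and 36.3 (-2.21 ± 0.49). Both copies were low in both LL-PM2.5 libraries. Hspb1, the small heat shock protein HSP27, had the most negative fold change of the list (-2.43 ± 0.70), and its 4 values were 8.17, 17.3, 23.1 and 119 FPKM. LD-PM2.5 replicate 2 alone held that high Hspb1 value, and the other LD-PM2.5 library was close to the higher LL-PM2.5 library. Hspa8, the constitutive HSC70, measured 210 and 371 FPKM against 539 and 748 (-1.07 ± 0.33). Hsp90aa1, the inducible HSP90, measured 15.5 and 24 FPKM against 50.5 and 61.7 (-1.42 ± 0.34). Leaving out 1 library moved Hspb1 between -3.12 and -0.99, the latter without LD-PM2.5 replicate 2. Without LL-PM2.5 replicate 2 the values were -3.28 for Hspa1b, -1.67 for Hspa8 and -2.04 for Hsp90aa1, and without LL-PM2.5 replicate 1 that of Hspa1b was -1.59. Hspa1b, Hspb1, Hspa8 and Hsp90aa1 were picked after their values were seen. At the other end, the mitochondrial chaperonins Hspd1 (-0.19 ± 0.17) and Hspe1 (-0.17 ± 0.28) and the regulator Hsf1 (-0.11 ± 0.15) differed by no more than about their standard errors.

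Heat shock factors bind arrays of inverted GAA units, so the 250 bases before the RefSeq starts (GRCm38.p6) were searched on both strands for a pair of such units, written GAANNTTC or TTCNNGAA. Of the 20 chaperone genes, 15 have a promoter entry and 9 of them hold such a pair in at least 1 window, against 14.5% of all symbols with an entry and 12.8% of all 32851 promoter windows of that length. Bag3 and Dnajb1 are among those with an entry and no pair, while Hspd1 and Hspe1, which differed little, hold one. Whether the pair goes with the size of the fold change was not tested. A pair of units is short and a match is a description, not a binding site. The stretches are shown for the inducible HSP70 copies and HSP27, whose fold changes were the most negative. They run 5′ to 3′ in the direction of the gene, from 150 to 31 bases before the start, with the matched units in capitals. Hspa1a and Hspa1b both lie on the minus strand of chromosome 17, and the 120 bases are the same in the 2 copies.
Hspa1a, chr17:34972187-34972306: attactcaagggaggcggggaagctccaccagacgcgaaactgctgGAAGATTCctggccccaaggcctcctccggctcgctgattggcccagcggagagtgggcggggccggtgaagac
Hspa1b, chr17:34959269-34959388: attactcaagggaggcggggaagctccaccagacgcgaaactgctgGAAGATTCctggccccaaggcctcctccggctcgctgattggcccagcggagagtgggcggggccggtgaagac
Hspb1, chr5:135887769-135887888, plus strand: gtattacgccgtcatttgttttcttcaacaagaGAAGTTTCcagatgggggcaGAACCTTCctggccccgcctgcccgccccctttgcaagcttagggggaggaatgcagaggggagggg
The match begins 104 bases before the start in both HSP70 copies, and 117 and 97 bases before it in Hspb1.

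STAT3 signalling genes and NF-kB targets stood lower beside the chaperones. All 11 tested STAT3 pathway members had a negative fold change (median -0.81), 9 did not overlap between groups, 9 had an unadjusted p below 0.05 and DESeq2 called 7 lower. The median lay between -0.52 and -0.96 when any of the 4 libraries was left out, and all 11 stayed negative each time. Socs3, the feedback inhibitor that STAT3 induces, measured 1.45 and 1.21 FPKM in LL-PM2.5 and 10.4 and 23.9 in LD-PM2.5, 12.6-fold lower (-3.66 ± 0.83). Pim1, a kinase gene that STAT3 induces, measured 6.03 and 7.02 FPKM against 10.8 and 12.9 (-0.81 ± 0.16, adjusted p = 0.366). Stat3 itself measured 16.8 and 15.9 FPKM against 24.3 and 23.9 (-0.52 ± 0.12). Il6st, the gp130 receptor chain shared by IL-6 type cytokines, was also non-overlapping (-0.76 ± 0.18), and so was Bcl3, a nuclear NF-kB cofactor (-1.46 ± 0.34). The 2 LL-PM2.5 libraries gave nearly the same Stat3 and Socs3 levels, while LD-PM2.5 replicate 2 held the higher Socs3 value of its group. Without that library the values were -2.96 for Socs3 and -0.85 for Bcl3. Nfkbiz, an atypical IkB protein, and Fosl2, an AP-1 subunit, had the smallest p-values of all tested genes, 4.76e-05 and 6.17e-05, and an adjusted p of 0.349 each. Their levels were under the limit of 5 FPKM for named genes, so both were picked after their values were seen. Nfkbiz measured 1.4 and 0.98 FPKM against 3.8 and 4.02 (-1.70 ± 0.20). Fosl2 measured 1.07 and 0.95 FPKM against 2.75 and 3.59 (-1.61 ± 0.20).

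Among cytokines and NF-kB targets, 13 of 16 listed genes were tested. Of the 13, 11 had a negative fold change (median -0.93), 9 did not overlap between groups and all 9 were lower, 6 had an unadjusted p below 0.05, and DESeq2 called 4. Tnf, Il6 and Cxcl2 were below the expression limit. Cxcl1, a neutrophil-attracting chemokine, measured 3.08 and 10.6 FPKM in LL-PM2.5 and 64.1 and 109 in LD-PM2.5, 11.8-fold lower (-3.56 ± 0.65, adjusted p = 0.366). Its value was -2.86 without LL-PM2.5 replicate 1, -4.94 without LL-PM2.5 replicate 2. Icam1, an adhesion molecule for leukocytes, measured 2.69 and 4.03 FPKM against 7.64 and 14.5 (-1.68 ± 0.32). Relb, an NF-kB subunit, measured 0.705 and 0.802 FPKM, both under the limit of 1 FPKM, against 1.66 and 3 (-1.58 ± 0.33). Each of these genes kept its groups apart, and the spread within LD-PM2.5 was up to about the size of its lower value. Nfkb2, another NF-kB subunit, had a log2 fold change of -0.93 ± 0.23. Csf1, the growth factor of macrophages, is not in the list but was named by its small p: 1.76 and 1.97 FPKM against 4.21 and 6.95 (-1.62 ± 0.25). Nfkbia, the classical NF-kB inhibitor, did not follow, with 21.5 and 23.3 FPKM against 21.5 and 25.5 (-0.03 ± 0.19). The neutrophil markers moved with these genes: the sum of the 8 listed markers was 7.02 and 13.9 FPKM in LD-PM2.5 and 4.29 and 3.8 in LL-PM2.5. Both tested members of that list stood lower, S100a8 at -1.76 ± 0.45 and S100a9 at -1.41 ± 0.44 (-1.10 and -0.67 without LD-PM2.5 replicate 2), Ly6g was at 0 in all 4 libraries, and their part in the chemokine and acute phase results was not tested. In bulk liver, fewer cells of a type and less RNA per cell cannot be told apart.

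The promoter window of Cxcl1 was searched for the NF-kB type sequence GGG, any 2 bases, then TTTCC, on both strands. It occurs in 1.41% of the 32851 windows and for 1.65% of symbols, and 5 of the 8 listed cytokine and NF-kB genes with an entry hold it. Nfkbia, which differed little, is among the 5, while Icam1, which stood lower, has an entry and no match. Whether a match goes with the fold change was not tested. The last 120 bases before the Cxcl1 start (GRCm38.p6, plus strand) are shown because this chemokine had the most negative fold change of the list, with both matches in capitals.
Cxcl1, chr5:90891125-90891244: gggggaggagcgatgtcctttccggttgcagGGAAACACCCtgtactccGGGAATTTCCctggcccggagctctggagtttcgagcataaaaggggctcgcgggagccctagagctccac
The matches begin 89 and 71 bases before the start, the first of them on the opposite strand. The STAT type sequence TTCNNNGAA was searched as well, and 1 of the 10 STAT3 pathway genes with an entry, Socs3, holds it, against 8.13% of symbols.

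**Figure D1:**
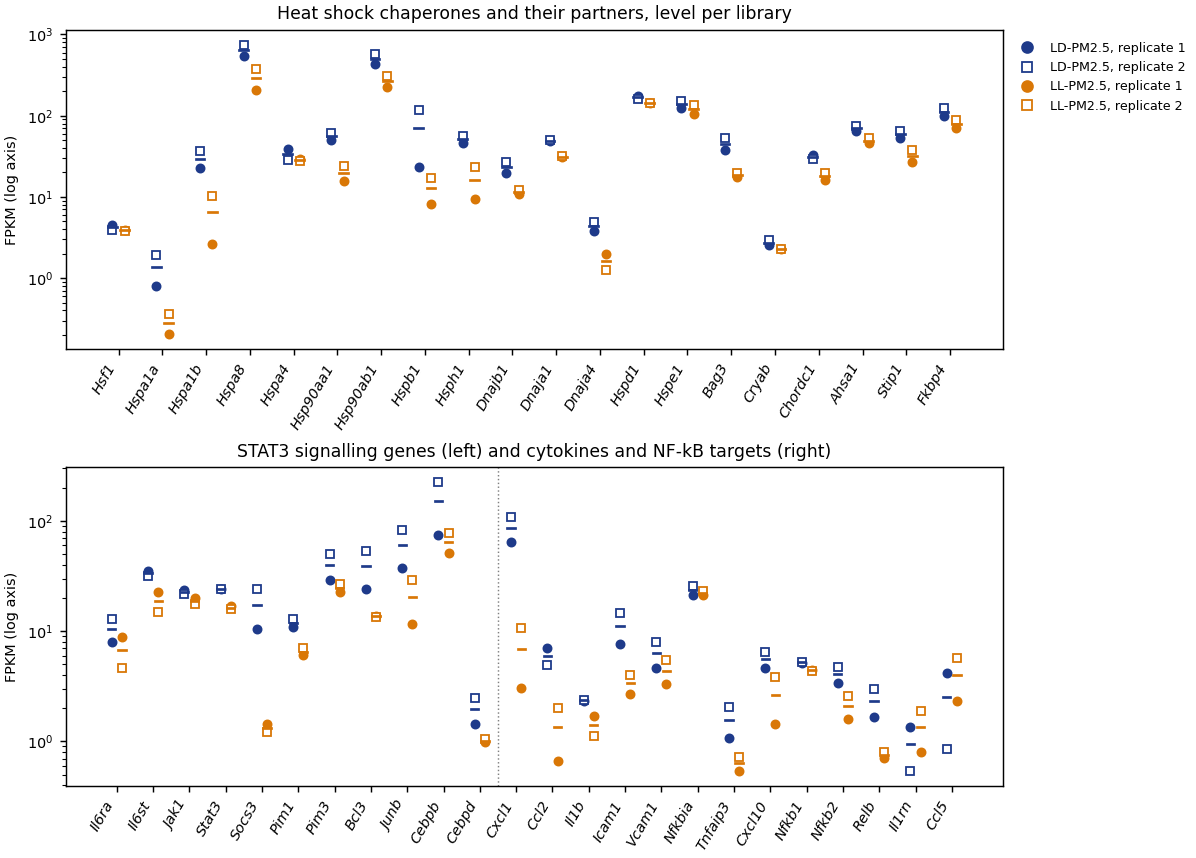
FPKM per library on a log axis for the 20 heat shock genes (top) and for 11 STAT3 signalling genes and 13 cytokine and NF-kB genes (bottom), with blue for LD-PM2.5, orange for LL-PM2.5, filled circles for replicate 1, open squares for replicate 2 and short lines for group means. Both orange points lie below both blue points in 18 of the 20 heat shock genes, in 9 of the 11 STAT3 genes and in 9 of the 13 cytokine genes. Over all tested genes this held for 18.3%.

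The acute phase proteins followed the same direction. Of 25 tested members 24 had a negative fold change (median -0.62), 15 did not overlap and were all lower, 12 had an unadjusted p below 0.05 and DESeq2 called 10 lower. The median stayed between -0.45 and -0.68 with any of the 4 libraries left out. Saa1 and Saa2, the inducible serum amyloid A proteins, differed most, and their near-identical sequences may share fragments. Saa1 measured 30.9 and 68.5 FPKM in LL-PM2.5 and 2134 and 303 in LD-PM2.5, 24-fold lower (-4.59 ± 0.93). Saa2 measured 9.66 and 34.8 FPKM against 1531 and 162 (-5.26 ± 1.16). For both genes LD-PM2.5 replicate 1 was far above replicate 2, and even replicate 2 exceeded both LL-PM2.5 libraries. Without LD-PM2.5 replicate 1 the log2 fold change was -2.63 for Saa1 and -2.85 for Saa2, and dropping LD-PM2.5 replicate 2 gave -5.39 and -6.11. With LL-PM2.5 replicate 1 dropped it was -4.60 for Saa2, and with LL-PM2.5 replicate 2 dropped it was -5.34 and -6.48. Orm2, an orosomucoid with close copies in Orm1 and Orm3, measured 8.42 and 9.89 FPKM against 67.7 and 32.1 (-2.44 ± 0.45, or -1.85 without LD-PM2.5 replicate 1). Lbp, which delivers lipopolysaccharide to its receptor, measured 23 and 17.7 FPKM against 34.3 and 38.1 (-0.80 ± 0.17). Steap4, a metalloreductase induced in inflamed liver, measured 48.7 and 32 FPKM against 106 and 98.9 (-1.30 ± 0.27). Orm2, Lbp and Steap4 were separated between groups in each library pair. The fibrinogen chain Fgg (-0.23 ± 0.24) and Hpx, the heme scavenger hemopexin (-0.19 ± 0.35), were within about 1 standard error of no difference, and Hamp was the only member with a positive value (0.50 ± 0.63). Fgg, Hpx and Hamp were chosen after their values were seen, to show the weak end of the list.

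Among the clock genes, the activators and the factors of opposite phase stood lower while the clock-driven output factor Dbp stood higher. All 6 activators and opposite phase factors had a negative fold change (median -1.10, or -0.66 with 5 of 6 negative without LD-PM2.5 replicate 1). Of the 6, 3 did not overlap, against 30.7% of all tested genes. Nfil3, the repressor that opposes DBP, measured 11 and 9.34 FPKM in LL-PM2.5 and 20.9 and 26.7 in LD-PM2.5, 2.31-fold lower (-1.21 ± 0.17, adjusted p = 0.366). Arntl measured 2.09 and 2.04 FPKM against 4.4 and 4, 1.98-fold lower (-0.99 ± 0.15, adjusted p = 0.366). Dbp measured 32.9 and 54 FPKM against 9.12 and 13, 4.09-fold higher (2.03 ± 0.37, adjusted p = 0.366). In these 3 genes the 2 libraries of each group were close to one another compared with the gap between groups, and DESeq2 called all 3. Nr1d2, REV-ERB beta, was also non-overlapping, with 19.2 and 16.3 FPKM against 14.5 and 11.8 (0.50 ± 0.17), and Rora, a ROR receptor, had 7.43 and 6.34 FPKM against 8.27 and 9.94 (-0.16 ± 0.19). The fold changes come from fragment counts, so for genes such as Rora they can differ from the ratio of FPKM, which also carries the authors' estimate of transcript length.

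In many other clock genes the gap between the 2 LD-PM2.5 libraries exceeded that between the group means. Nr1d1, REV-ERB alpha, measured 52.5 FPKM in LD-PM2.5 replicate 1 and 5.55 in replicate 2, against 37.8 and 39.8 in LL-PM2.5 (0.43 ± 0.78). Cry1, a cryptochrome repressor, measured 2.85 and 15.1 FPKM in LD-PM2.5 and 2.9 and 2.71 in LL-PM2.5 (-1.66 ± 0.66). Per2, a period repressor, measured 1.85 and 9.33 FPKM in LD-PM2.5 and 1.86 and 2.23 in LL-PM2.5 (-1.41 ± 0.68). LD-PM2.5 replicate 1 was near the LL-PM2.5 libraries for Cry1 and Per2, and replicate 2 stood apart. None of the 6 period and cryptochrome arm genes separated the groups: Per1 stood at -0.45 ± 0.53, Per3 at 0.10 ± 0.67, Cry2 at -0.08 ± 0.34 and Ciart, a small repressor of the loop, at 0.45 ± 0.75. Clock had a log2 fold change of -0.54 ± 0.26. Npas2 was near the detection limit, with at most 0.413 FPKM, and had -1.55 ± 0.95. The other clock-driven factors overlapped as well: Tef and Hlf, relatives of DBP, stood at 0.22 ± 0.40 and -0.14 ± 0.27, and Bhlhe40, a DEC factor, at -0.59 ± 0.38. The listed DEC factor Bhlhe41 was below the expression limit. Without LD-PM2.5 replicate 2 the median of the repressor arm went from -0.26 to 0.63, with 0 of 6 negative, and without replicate 1 it was -0.87 with 6 of 6 negative. Arntl, Nfil3 and Dbp kept their direction without any 1 of the 4 libraries, with ranges of -0.87 to -1.10, -1.02 to -1.37 and 1.65 to 2.34.

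REV-ERB and ROR receptors share DNA elements that contain GGTCA, and TNGGTCA was searched on both strands because Arntl is a textbook target of both. It occurs in 9.19% of the 32851 windows and for 10.5% of symbols, and 2 of the 5 activator and opposite phase genes with an entry, Arntl and Nfil3, hold it. The stretch from 250 to 131 bases before the upstream of 2 Arntl starts is shown (GRCm38.p6, plus strand), with its 2 matches in capitals.
Arntl, chr7:113207215-113207334: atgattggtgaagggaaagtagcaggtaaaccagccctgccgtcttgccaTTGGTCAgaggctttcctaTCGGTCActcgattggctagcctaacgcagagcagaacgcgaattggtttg
The matches begin 200 and 181 bases before that start. The searched sequence is short and allows any base in its second position, which is T in the first match and C in the second. Neither match is given as a known receptor element. A match is a description, and whether either receptor binds there was not tested.

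**Figure D2:**
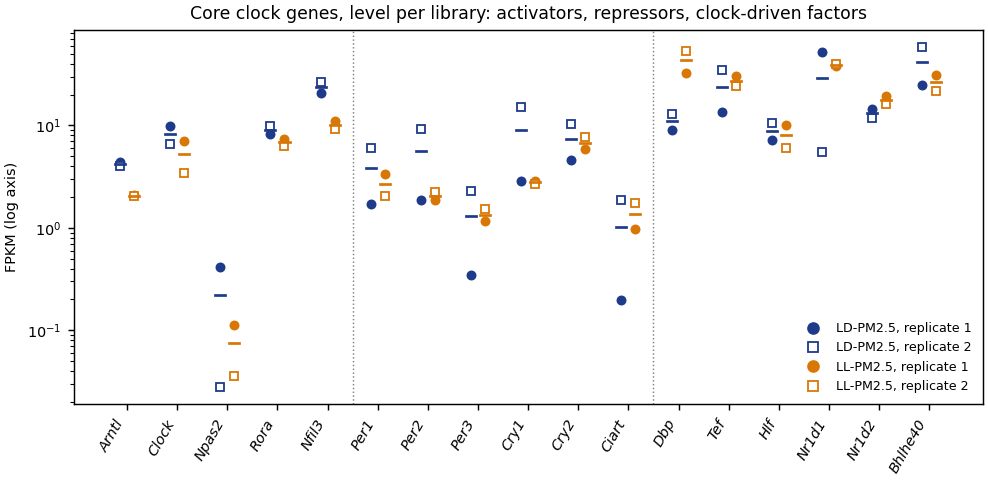
FPKM per library on a log axis for 17 clock genes: 5 activators and opposite phase factors (left), 6 genes of the period and cryptochrome arm (middle) and 6 clock-driven factors (right), with blue for LD-PM2.5, orange for LL-PM2.5, filled circles for replicate 1, open squares for replicate 2 and short lines for group means. The groups are apart for Nfil3, Arntl, Rora, Dbp and Nr1d2, and the 2 blue points lie several-fold apart for Nr1d1, Cry1 and Per2.

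The rhythmic liver outputs shared the split between the LD-PM2.5 libraries. Of the 14 tested, 11 had a negative fold change (median -0.30), 4 did not overlap and 2 had an unadjusted p below 0.05. Over all tested genes 30.7% did not overlap and 9.23% had such a p. The counts of 4 and 2 lay near those shares. Without LD-PM2.5 replicate 2 only 4 of the 14 were negative and the median was 0.49. Alas1, the rate-limiting enzyme of hepatic heme synthesis, did separate the groups, with 62 and 30.2 FPKM in LL-PM2.5 and 160 and 191 in LD-PM2.5, 3.74-fold lower (-1.90 ± 0.43, or -2.50 without LL-PM2.5 replicate 1). Cdkn1a, the cell cycle inhibitor p21, measured 1.19 and 1.36 FPKM against 3.83 and 2.61 (-1.30 ± 0.25, adjusted p = 0.366). DESeq2 called both. The other 11 tested genes of heme synthesis and breakdown lay between -0.29 and 0.23, none of them with an unadjusted p below 0.05. Of 14 glucocorticoid-responsive genes 11 were negative (median -0.39, or 0.08 without LD-PM2.5 replicate 2). Fkbp5, which binds the receptor complex, measured 4.94 and 4.17 FPKM against 6.99 and 17.9 (-1.42 ± 0.38, or -0.60 without LD-PM2.5 replicate 2), and Zbtb16, a transcription factor, measured 1.34 and 0.561 against 3.6 and 3.68 (-1.92 ± 0.67, or -2.62 without LL-PM2.5 replicate 1).

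Hemoglobin transcripts were the clearest group on the higher side. Hba-a1 measured 19.6 and 24.9 FPKM in LL-PM2.5 and 4.81 and 5.92 in LD-PM2.5, 4.19-fold higher (2.07 ± 0.31, adjusted p = 0.366). Hbb-bs measured 90.8 and 94.2 FPKM against 25.5 and 29.8, 3.41-fold higher (1.77 ± 0.36). Hba-a2 (1.98 ± 0.38) and Hbb-bt (1.43 ± 0.35) were higher by like amounts, with the caution that alpha and beta globin copies are near-identical and may share fragments. The replicates of each group lay close together and DESeq2 called all 4 genes. Alas2, the erythroid enzyme of heme synthesis, did not follow, with 70.8 and 71.7 FPKM against 69.3 and 69.7 (0.05 ± 0.13), and Slc4a1, the red cell anion exchanger, was below the expression limit. The summed level of the 6 erythroid markers was 206 and 221 FPKM in LL-PM2.5 and 107 and 115 in LD-PM2.5. Whether the globin transcripts came from blood in the tissue was not tested.

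Iron handling showed 1 large difference among smaller ones. Hamp2, a copy of the hepcidin gene in mice, measured 19.4 and 60.8 FPKM in LL-PM2.5 and 3.04 and 4.91 in LD-PM2.5, 9.46-fold higher (3.24 ± 0.56, adjusted p = 0.366). LL-PM2.5 replicate 2 held the high value, and Hamp2 was at 2.26 without it and at 3.82 without LL-PM2.5 replicate 1. The much more abundant Hamp, hepcidin itself, measured 2447 and 3157 FPKM against 608 and 3025, so that the groups overlapped. Hamp and Hamp2 are close in sequence and their fragments may be split between them. The iron importers Slc39a14 (-0.40 ± 0.13) and Slc11a2 (-0.40 ± 0.13) stood lower without overlap, and over the 18 tested genes of this list 12 were positive and 6 negative, with a median of 0.14, which was -0.12 without LD-PM2.5 replicate 1.

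Cyp26a1, which clears retinoic acid and is itself induced by it, measured 40 and 20.6 FPKM in LL-PM2.5 and 7.05 and 11.6 in LD-PM2.5, 3.33-fold higher (1.74 ± 0.32, adjusted p = 0.366). Rarb, a retinoic acid receptor gene induced by its ligand, measured 1.71 and 1.11 FPKM against 0.955 and 0.895 (0.62 ± 0.22). Both genes separated the groups, and 9 of the 12 tested retinoid genes were positive (median 0.46). The list medians without 1 library ranged from 0.01 (without LL-PM2.5 replicate 1) to 0.55.

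Cholesterol synthesis genes were positive in 25 of 27 cases with a median of 0.29, but the sign of most rested on LD-PM2.5 replicate 2. Without that library 16 of the 27 were negative and the median was -0.10, and without LD-PM2.5 replicate 1 the median was 1.04. Insig1, a feedback brake on the pathway, measured 166 and 255 FPKM in LL-PM2.5 and 110 and 103 in LD-PM2.5 (1.07 ± 0.33). Sc5d, an enzyme late in the pathway, measured 361 and 334 FPKM against 295 and 160 (0.77 ± 0.24). Both separated the groups, and DESeq2 called Insig1. Hmgcs1, an early enzyme of the pathway, measured 128 and 133 FPKM against 206 and 26.2 (0.29 ± 0.71). It was picked after its values were seen to show the gap between the LD-PM2.5 libraries. Hmgcs1 was at 2.28 without LD-PM2.5 replicate 1 and at -0.51 without replicate 2, a wider swing than that of the list median. Sterol export into bile pointed the same way as Insig1: the transporter subunit Abcg8 measured 28.6 and 31.3 FPKM against 16.5 and 21.3 (0.78 ± 0.18), and its partner Abcg5 stood at 0.70 ± 0.26. Slco1a4, a hepatic uptake carrier for bile acids and drugs, measured 14.8 and 17.3 FPKM against 5.8 and 6.57 (1.52 ± 0.40). Over the whole list of bile acid synthesis and sterol export, 12 genes were positive and 12 negative.

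Amino acid breakdown was positive in 25 of 32 tested genes (median 0.24). Of the 32, 12 did not overlap and all 12 were higher, against 12.3% of all tested genes. Of the 32, 9 had an unadjusted p below 0.05 with a positive value, 1 with a negative value, and DESeq2 called 3 higher. Over all tested genes 3.54% were higher and 5.68% lower at such a p, and DESeq2 called 0.292% higher. Hal, which opens histidine breakdown, measured 90.8 and 92.1 FPKM in LL-PM2.5 and 63.7 and 49.7 in LD-PM2.5 (0.73 ± 0.14, adjusted p = 0.366). Amdhd1, a later enzyme of the same route, measured 93.3 and 95.8 FPKM against 70 and 40.6 (0.84 ± 0.22). Sds, which converts serine to pyruvate for gluconeogenesis, measured 188 and 354 FPKM against 56 and 126, 3.03-fold higher (1.60 ± 0.40). Each of the 3 kept its groups apart. The list median was 0.16 to 0.37 with any of the 4 libraries left out. Among 12 urea cycle and periportal nitrogen genes, 9 were positive (median 0.12), and the glutamine carrier Slc38a3 measured 574 and 717 FPKM against 444 and 417 (0.62 ± 0.16). Pericentral genes driven by Wnt signals were mostly negative, 12 of 16 (median -0.38), including Rhbg, an ammonia channel (-0.72 ± 0.22), and Slc13a3, a dicarboxylate carrier (-0.76 ± 0.23). Dropping LL-PM2.5 replicate 2 took the pericentral median to -0.05, and dropping replicate 1 of that group took it to -0.79.

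Since the title of the series names chromatin, regulators of chromatin were listed as well. Of 26 tested histone acetylation regulators 15 were positive and 11 negative (median 0.10, or -0.01 without LL-PM2.5 replicate 1), and 10 of the 12 that did not overlap were lower. Over all tested genes 30.7% did not overlap, and 18.3% were lower without overlap. The lower ones include the corepressor Ncor1, with 9.99 and 5.75 FPKM in LL-PM2.5 and 12.9 and 12 in LD-PM2.5 (-0.69 ± 0.29), and the deacetylase gene Hdac4, with 0.737 and 0.875 against 1.11 and 1.28 (-0.53 ± 0.17). The deacetylase gene Hdac2 went the other way, with 11.7 and 10.2 FPKM against 10 and 7.42 (0.37 ± 0.13). Among 24 DNA and histone methylation regulators 18 were negative (median -0.19), among them the methyltransferase Setd7 (-0.80 ± 0.30) and the demethylase Kdm6b (-0.67 ± 0.28). DESeq2 called none of these chromatin genes, and fold changes in either list lay between -0.80 and 0.37.

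**Figure D3:**
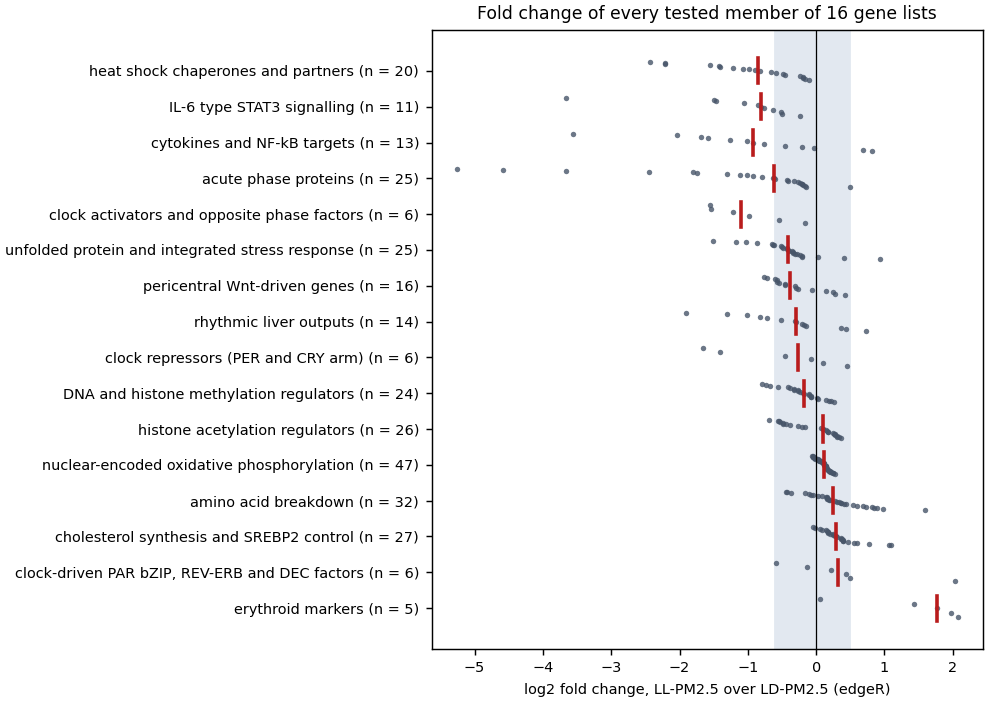
Log2 fold change of LL-PM2.5 over LD-PM2.5 (horizontal axis) for every tested member of 16 gene lists (rows); each dot is a gene, red bars are list medians and the grey band holds the central 90% of all 11316 tested genes, -0.60 to 0.50. All 20 heat shock genes lie left of 0 with a median of -0.86, and the 5 erythroid markers lie right of it with a median of 1.77.

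Further lists are given by their counts. The unfolded protein response had 22 of 25 negative (median -0.41), which became 16 of 25 and -0.07 without LD-PM2.5 replicate 1. Nuclear-encoded oxidative phosphorylation had 39 of 47 positive, yet its values spanned only -0.06 to 0.27, and without LD-PM2.5 replicate 1 24 of the 47 were negative. Interferon response genes had 18 of 21 negative with a median of -0.15, and 9 of 21 with 0.04 without LD-PM2.5 replicate 1. The list medians were 0.13 for fatty acid synthesis, 0.10 for fatty acid oxidation, 0.04 for NRF2 targets, -0.10 for cytochrome P450 families 2 and 3 and -0.09 for complement and coagulation factors, against 0.01 for all genes. All 6 tested MHC class II genes were positive (median 0.48, or 0.02 without LL-PM2.5 replicate 2), and none separated the groups. The growth hormone and STAT5 axis was mixed, 8 of 11 negative, with Stat5a at -0.61 ± 0.21 and Igfbp3, a carrier of IGF1, at 0.81 ± 0.33.

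The genes of smallest p outside the lists were of varied function. Tm4sf1, a membrane protein of the tetraspanin-like family, measured 9.03 and 8.15 FPKM in LL-PM2.5 and 5.31 and 4.34 in LD-PM2.5 (0.86 ± 0.13, adjusted p = 0.366). Eepd1, a nuclease, measured 7.23 and 6.71 FPKM against 4.44 and 3.27 (0.89 ± 0.17). Tdp2, a DNA repair phosphodiesterase, measured 13.8 and 12.3 FPKM against 9.37 and 6.73 (0.78 ± 0.14). These differences were under 2-fold, and a choice by small p and non-overlap favours genes whose replicates lie close. Mir22hg, the host transcript of a microRNA, stood at 1.34 ± 0.28 and Hnrnpd, an RNA-binding protein, at 0.59 ± 0.13. On the lower side, Prg4, a secreted lubricating glycoprotein, measured 7.49 and 6.31 FPKM against 15.9 and 10.9 (-1.08 ± 0.18). Sult5a1, a sulfotransferase, measured 4.77 and 2.57 FPKM against 10.2 and 11.9 (-1.57 ± 0.28). St3gal1, a sialyltransferase, measured 13.8 and 10.4 FPKM against 23.1 and 19.3 (-0.77 ± 0.14). Mup-ps17, a pseudogene among the near-identical major urinary protein genes, measured 0.292 and 0 FPKM against 5.48 and 6.34, and its fragments may belong to other copies.

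**Figure D4:**
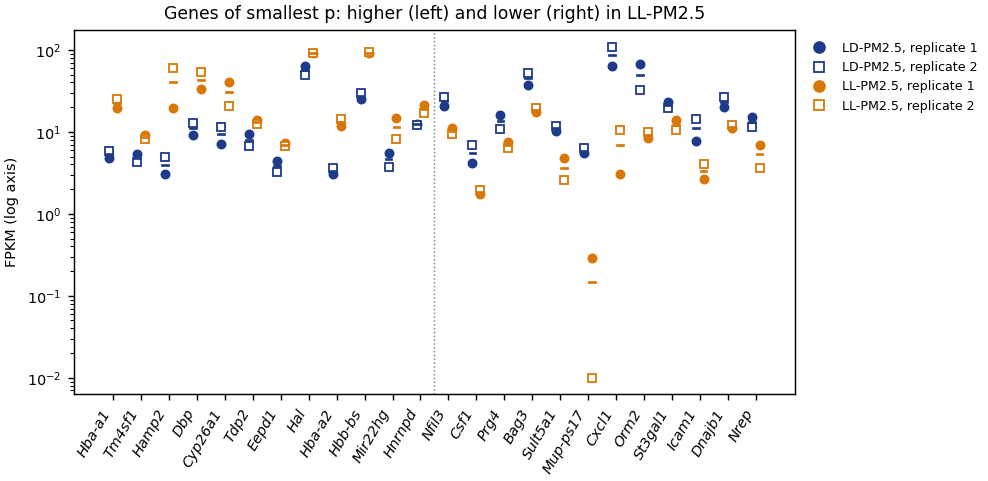
FPKM per library on a log axis for the 12 genes higher (left) and 12 genes lower (right) in LL-PM2.5 with the smallest unadjusted p, groups that do not overlap and at least 5 FPKM on average in 1 group; blue is LD-PM2.5, orange LL-PM2.5, filled circles replicate 1, open squares replicate 2, and short lines group means. The value of 0 for Mup-ps17 in LL-PM2.5 replicate 2 is drawn at 0.01, and no gene plotted passed the adjusted threshold.

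The light comparison in filtered air shares no library with this one, and the difference of the 2 light effects was tested as an interaction. EdgeR called 0 genes for it (0% of those tested, smallest adjusted p 0.843). At an unadjusted p below 0.05 there were 552 (4.88%), and DESeq2 called 33 (0.292%), several of them pancreatic enzymes. By edgeR, LL-FA against LD-FA had 0 called genes and 310 at an unadjusted p below 0.05. Over the 11316 genes the 2 sets of fold changes had a Pearson correlation of -0.083 and a Spearman correlation of -0.053, given as a description, since genes are not independent replicates.

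The acute phase medians were alike in both air conditions, -0.62 under PM2.5 and -0.77 in filtered air. Saa1 stood at -4.59 ± 0.93 and -5.62, and Orm2 at -2.44 ± 0.45 and -2.43, so these low levels under constant light were measured in either air. The chaperone median was -0.86 under PM2.5 and -0.23 in filtered air, where Hspa1b (-3.00) and Dnajb1 (-1.09) were as low or lower and Hspb1 was at 0.27. The STAT3 list had a median of -0.81 under PM2.5 and -0.04 in filtered air, and Socs3 had -3.66 ± 0.83 and 0.78, a difference with an unadjusted interaction p of 0.00483. The globins had opposite signs in the 2 air conditions, with overlapping groups in filtered air for Hbb-bs. Hba-a1 was at 2.07 ± 0.31 under PM2.5 and -0.78 in filtered air (difference 2.85 ± 0.43), and the erythroid list medians were 1.77 and -0.72. In filtered air Hba-a1 measured 9.76 and 10.5 FPKM in LL-FA and 23.6 and 12.7 in LD-FA, and Hbb-bs measured 38.6 and 49.4 against 102 and 45.2. LD-FA replicate 1, also the library richest in pancreatic transcripts, held the high value of both genes, and its part in the sign was not tested. Hamp2 was at 3.24 ± 0.56 and -1.29 (difference 4.53 ± 0.78), Alas1 at -1.90 ± 0.43 and 1.36 (difference -3.26 ± 0.61), and Steap4 at -1.30 ± 0.27 and 0.64 (difference -1.94 ± 0.38). The smallest interaction p, 0.000106, belonged to Nrep, a regulator of neuronal regeneration, with 7 and 3.65 FPKM in LL-PM2.5 against 15.2 and 11.3 in LD-PM2.5, while LL-FA had 13.1 and 11.3 and LD-FA 6.27 and 3.42. By edgeR the adjusted interaction p was 0.843 for each of Socs3, Hba-a1, Hamp2, Alas1, Steap4, Nrep, Arntl and Nfil3, and DESeq2 called Nrep, Alas1, Hamp2, Hba-a1 and Steap4. Dbp was higher under constant light in both air conditions (2.03 ± 0.37 and 1.43), while Arntl and Nfil3 were at -0.27 and -0.29 in filtered air, with unadjusted interaction p-values of 0.00861 and 0.00557.

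**Figure D5:**
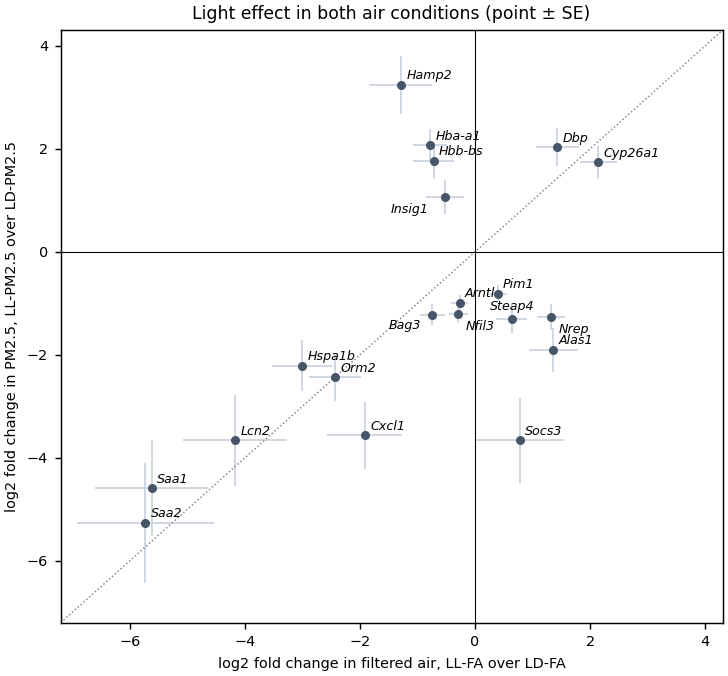
Log2 fold change of constant light over the light/dark cycle in filtered air (horizontal axis) and under PM2.5 (vertical axis) for 20 genes named in the text; bars are standard errors from edgeR and the dotted line marks equal values. Saa1, Saa2, Lcn2 and Orm2 are low on both axes, Dbp and Cyp26a1 high on both, and Hba-a1, Hbb-bs, Hamp2 and Insig1 are positive under PM2.5 and negative in filtered air.

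The 4 libraries held 22210000 to 29760000 fragments, and replicates correlated at 0.980 in LD-PM2.5 and 0.968 in LL-PM2.5 (Pearson, log2 of scaled counts). The hepatocyte markers were high, as the liver label would have it: their 10 members with an estimate summed to between 26479 and 32122 FPKM in each library. Pancreatic acinar markers summed to 134 and 27.6 FPKM in LD-PM2.5 and 19.3 and 368 in LL-PM2.5, so LL-PM2.5 replicate 2 stood apart, and muscle markers stayed at or under 1.34 FPKM. The filtered-air libraries held more foreign tissue, with 3801 FPKM of pancreatic markers and 276 of muscle markers in LD-FA replicate 1 and 528 of muscle markers in LL-FA replicate 1. Kupffer cell and macrophage markers (273 to 336 FPKM), sinusoidal endothelium (93.6 to 109) and stellate cells (187 to 204) overlapped between the groups.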

How the data were processed

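Per the submitters' processing notes, reads were processed with STAR, Cufflinks and Cuffdiff on mm10; their versions and settings are not stated there. The deposited tables give, per gene and library, FPKM and an estimated count of fragments computed by the authors, and 97.4% of the nonzero estimated counts lay within 0.01 of a whole number. Genes that lacked an estimate in at least 1 of the 8 libraries (47 of 48432 listed, 1.07% of fragments) were left out. Estimated counts were rounded and fitted with edgeR 4.0.16 (TMM scaling, quasi-likelihood test, R 4.3.3) over all 8 libraries with 1 mean per group, after keeping genes with at least 1 FPKM in 2 libraries, and p-values were adjusted over all 11316 tested genes by Benjamini-Hochberg. The biological coefficient of variation was 21.4%. The code was tested on simulated data. Libraries held 22210000 to 31820000 fragments.

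Named genes were the 12 per direction with the smallest p, non-overlapping groups and at least 5 FPKM, all clock genes, and up to 4 of the smallest p in each other list. Genes outside this rule were chosen after their values were seen: Alas2, Fabp3-ps1, Fgg, Fosl2, Hamp, Hmgcs1, Hpx, Hsf1, Hsp90aa1, Hspa1b, Hspa8, Hspb1, Hspd1, Hspe1, Il6st, Lcn2, Myh2, Nfkbia, Nfkbiz, Orm1, Orm3, Saa2, and the genes named only in the closing section. The comparison, the 37 pathway lists and the 12 marker lists were chosen with earlier results of these data known. Alternatives were DESeq2 1.42.0, limma 3.58.1, other scalings and filters, a replicate block and leaving out each library; a crossed block and leaving out 2 filtered-air libraries together were added after seeing the data. ATAC-seq was not analysed here. Gene names come from GENCODE vM21 and promoter sequences from RefSeq (GRCm38.p6). Some members of the clock and cholesterol lists are not reported here by name; the list counts and medians include them.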

Additional observations from a re-analysis of the deposited data

How the results depend on the processing

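By edgeR no gene passed in the comparison or its interaction, and this held with another scaling, with no filter or one of 5 FPKM and with a robust prior. With only the 4 libraries no gene passed in the comparison, and the interaction has no fit there. DESeq2 called 33 higher, 106 lower and 33 for the interaction, and limma on log2(FPKM + 1) called 1 higher and 2 for the interaction, while limma on log2(FPKM + 0.1) called 0 of each; the cause was not tested. Leaving out 1 library gave 0 to 4 lower calls, 0 higher and 0 for the interaction: 1 without LD-PM2.5 replicate 1 (Tppp) and 4 without LL-PM2.5 replicate 1 (Acnat2, Mup1, Mup12 and Serpina12). With 2 libraries a group, the sign of some log2 fold changes turned when 1 library was left out. Across those fits the clock genes ranged from -1.06 to 0.66 for Per1, -2.13 to 0.15 for Per2, -0.69 to 1.94 for Per3, -2.43 to 0.10 for Cry1, -0.53 to 0.60 for Cry2, -0.39 to 2.53 for Ciart, -0.42 to 2.85 for Nr1d1, -2.54 to 1.43 for Npas2, -0.49 to 0.35 for Hlf, -0.31 to 1.11 for Tef and -1.05 to 0.14 for Bhlhe40. Other ranges were -0.44 to 0.03 for Fgg, -0.24 to 2.17 for Hamp, -0.51 to 2.28 for Hmgcs1, -0.72 to 0.20 for Hpx, -0.22 to 0.02 for Hsf1, -0.43 to 0.01 for Hspd1, -0.49 to 0.10 for Hspe1 and -0.16 to 0.12 for Nfkbia.

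The replicate block called 0 higher, 0 lower and 0 for the interaction. Same-numbered LD-PM2.5 and LL-PM2.5 libraries had a correlation of deviations of -0.26, and the other 5 pairs of groups ranged from -0.59 to 0.33. No label ties the numbers to a shared animal or batch, and the samples were treated as sharing only a number. The crossed pairing, added after seeing the data, also called 0, 0 and 0.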

Other observations

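The major urinary proteins, pheromone carriers that the liver secretes under growth hormone control, were not among the lists, and were looked at after their values were seen. Of 17 tested genes and pseudogenes of the family 16 had a negative fold change, with a median of -1.70, 13 did not overlap between groups and 8 had an unadjusted p below 0.05. Over all tested genes 30.7% did not overlap and 9.23% had such a p. Mup17 measured 112 and 3.81 FPKM in LL-PM2.5 and 1629 and 782 in LD-PM2.5 (log2 fold change -4.40 ± 1.32). Mup9 measured 3.94 and 0.636 FPKM against 86.6 and 26.7 (-4.56 ± 0.96). Mup3, the most abundant of the 17, overlapped, with 10333 and 5858 FPKM against 9969 and 10385 (-0.36 ± 0.30). LL-PM2.5 replicate 2 held the lowest value in 16 of the 17. The copies are near-identical, and fragments may be split among them, so the 17 values are not separate measurements. Mup2, Mup7, Mup10, Mup11, Mup13, Mup14, Mup15, Mup18, Mup19 and Mup20 had no estimate in some library, marked as having too many fragments, and are not in these counts. Mup7, Mup11, Mup14 and Mup20 carried that mark in both LD-PM2.5 libraries and in neither LL-PM2.5 library. Without LL-PM2.5 replicate 1 the values were -8.14 for Mup17 and -6.22 for Mup9, and without LL-PM2.5 replicate 2 they were -3.46 and -3.83.

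Cirbp, a cold-inducible RNA-binding protein whose transcript is known to vary opposite to heat shock genes with body temperature, was also chosen after its value was seen. It measured 12.2 and 8.26 FPKM in LL-PM2.5 and 5.3 and 4.01 in LD-PM2.5 (1.20 ± 0.28, unadjusted p = 0.00303), without overlap, and DESeq2 called it. In filtered air its log2 fold change was -0.10. Rbm3, a related cold-inducible gene, measured 5.27 and 6.74 FPKM against 3.72 and 5.23 (0.41 ± 0.36), with 0.08 to 0.78 when 1 library was left out, and was called by neither tool. Whether body temperature had a part in the levels of these genes or of the chaperones was not tested.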
